A study of Mus musculus with 3 samples.

Results

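The levels of 9 genes of reactive gliosis were followed, one by one, through the cells of the aging mouse retina: Gfap and Vim, which encode intermediate filament proteins, Lcn2 and Serpina3n, which encode secreted proteins of reactive astrocytes, Osmr, Stat3 and Socs3, which encode a cytokine receptor, its transcription factor and its feedback inhibitor, and Fgf2 and Il33, which encode a growth factor and an alarmin. They were chosen by symbol and make up 9 of the 32285 genes in the count matrices, and each symbol matched 1 gene. The retinas came from C57BL/6JRj mice of 3 ages, called young at 3 months, adult at 12 months and old at 23 months. They had been dissociated, enriched with magnetic beads for CD31, a surface protein of endothelial cells, and profiled by droplet single-cell RNA sequencing. No mouse was treated or genetically altered, so the groups differ by age, and the comparison asks how these genes differ between ages in the cell types that passed the enrichment. The retinas of 2 mice were pooled into 1 library per age, so no test between ages was possible. The intervals given are exact 95% intervals of counting error (Poisson for levels and their ratios, Clopper-Pearson for shares of cells), and they do not hold the spread between mice.

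Müller glia are the radial glia that span the neural retina and wrap its neurons and vessels. In retinal injury they and the astrocytes of the nerve fibre layer are known to build up GFAP and vimentin filaments, and cytokines of the interleukin-6 family, which signal through the gp130 receptor, JAK kinases and STAT3, are known to drive that change. SOCS3 is made in response to STAT3 and shuts the same receptors down. IL-33 is kept in the nucleus of glial cells and is released when they are damaged, and FGF2 is a survival factor for photoreceptors.

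Levels are given as CPM, the usual counts-per-1e6 scale: the unique molecular identifiers (UMIs) of a gene relative to those of all genes in the cells of 1 class and 1 library. A difference in level between ages can reflect more RNA per cell or more cells that carry the RNA, and levels were not compared between genes. The 3 libraries held 16577026 to 19977238 UMIs over 2491 to 3243 barcodes, and 5360 barcodes were kept as cells, 1706 young, 1957 adult and 1697 old. Of all barcode sequences 4 occurred in more than 1 library. Clusters were named from marker genes, and 8 classes had at least 30 cells in each library. CD31 enrichment was partial: the Müller glia-like class held 184 young, 226 adult and 214 old cells, beside 508, 503 and 491 endothelial-like cells.

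The Müller glia-like class carried its markers at nearly the same level in every library. The summed level of 8 markers, among them Rlbp1, the retinaldehyde-binding protein, and Glul, glutamine synthetase, came to 19528 CPM for young, 19844 for adult and 20003 for old cells. The summed level of 6 rod markers in the same cells was 568, 1692 and 1382 CPM. The share of free RNA (RNA loose in the suspension) estimated from rod genes was 21.2, 32.5 and 40.8%. By the same estimate it was 2.65, 2.96 and 4.60% in endothelial-like, 6.69, 7.26 and 4.51% in pericyte-like and 28.8, 14.05 and 19.6% in bipolar cells. Whether all of the Müller share was loose RNA was not tested. After the Müller share was subtracted the old/young ratios were 1.71 (1.47 to 1.98) for Socs3 and 1.62 (1.46 to 1.79) for Il33. The class joined 3 clusters: 1 with 415 cells and a median of 10728 UMIs, led by Rlbp1, Apoe and Dkk3, 1 with 114 cells led by Trpm3, and 1 with 95 mostly shallow cells that was led by Rlbp1 but also by S100b, Lcn2 and lens crystallins. S100b is an astrocyte marker, and the third cluster had a median of 1956 UMIs. The median depth of the whole class was 9146 UMIs per young, 9189 per adult and 6636 per old cell, so results were also read in the largest cluster alone, where the medians were 10654, 10702 and 10773.

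The annotated gene bodies (GENCODE M21, build GRCm38) do not overlap one another. Gfap spans chr11:102887336-102900912, Stat3 chr11:100885098-100939540 and Socs3 chr11:117966079-117970047, all on the minus strand. Vim lies at chr2:13573927-13582826 (plus strand), Lcn2 at chr2:32384633-32388252 (minus), Serpina3n at chr12:104406729-104414329 (plus) and Osmr at chr15:6813577-6874969 (minus). Fgf2 lies at chr3:37348346-37410108 (plus) and Il33 at chr19:29925114-29960718 (plus). All are protein coding. Serpina3n belongs to a cluster of near-identical genes, so its UMIs could be split with its paralogs, and its counts are uncertain to that extent. Fgf2 overlaps an antisense gene, Nudt6, and its counts are uncertain for that reason.

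One of the promoters is shown because it carries the letters of a STAT binding motif and belongs to Socs3, whose levels by age are given below. The motif TTCNNNGAA, which reads the same on both strands, was searched in the 250 bases before each RefSeq gene start (GRCm38.p6). Of 32851 such windows 7.02% held it. Of 10 windows for the 9 genes (Il33 has a pair of starts), 1 held it, that of Socs3, with its first base 154 bases before the start. This match describes the letters only. The RefSeq start of Socs3 differs from the GENCODE one, so its window lies inside the annotated gene body given above. The Socs3 window, chr11:117969367-117969616, minus strand, with the motif in capitals, reads
Socs3: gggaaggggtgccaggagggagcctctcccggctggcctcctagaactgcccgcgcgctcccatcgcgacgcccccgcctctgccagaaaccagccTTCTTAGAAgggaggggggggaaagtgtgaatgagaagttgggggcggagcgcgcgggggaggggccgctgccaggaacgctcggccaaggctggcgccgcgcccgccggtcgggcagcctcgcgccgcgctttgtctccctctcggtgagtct

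Among kept cells, some of the 9 genes were found mostly in the Müller glia-like class and others mainly in the vessel wall. Such shares of UMIs also depend on how many cells of each class passed the enrichment. Of all UMIs in kept cells, the Müller glia-like class held 97.8% for Il33, 97.4% for Serpina3n, 92.9% for Gfap, 83.4% for Lcn2 and 46.5% for Fgf2. The Lcn2 share was 95.9% in young, 65.8% in adult and 31.2% in old cells. It held 28.2% for Socs3, 15.5% for Vim, 11.02% for Osmr and 9.54% for Stat3. Ranked by the median of the 3 libraries, the class came first of 8 for Gfap, Lcn2, Serpina3n, Fgf2 and Il33. For Fgf2 its range over the libraries overlapped that of smooth muscle, the next class. For the other 4 the ranges did not overlap, although the libraries differ in age and are not replicates. For Lcn2 the gap was narrow, 15.9 CPM in old Müller glia-like cells (25 UMIs) against 12.3 in old cones (6 UMIs). Outside the 8 classes, 14 old cells of a mixed microglia and T cell cluster held 116 CPM of Lcn2 (13 UMIs in 2 cells). By the same median the Müller glia-like class ranked 2nd for Socs3 (249 CPM, against 124 in endothelial-like cells), 3rd for Vim, 4th for Osmr and 5th for Stat3.

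**Figure D1:**
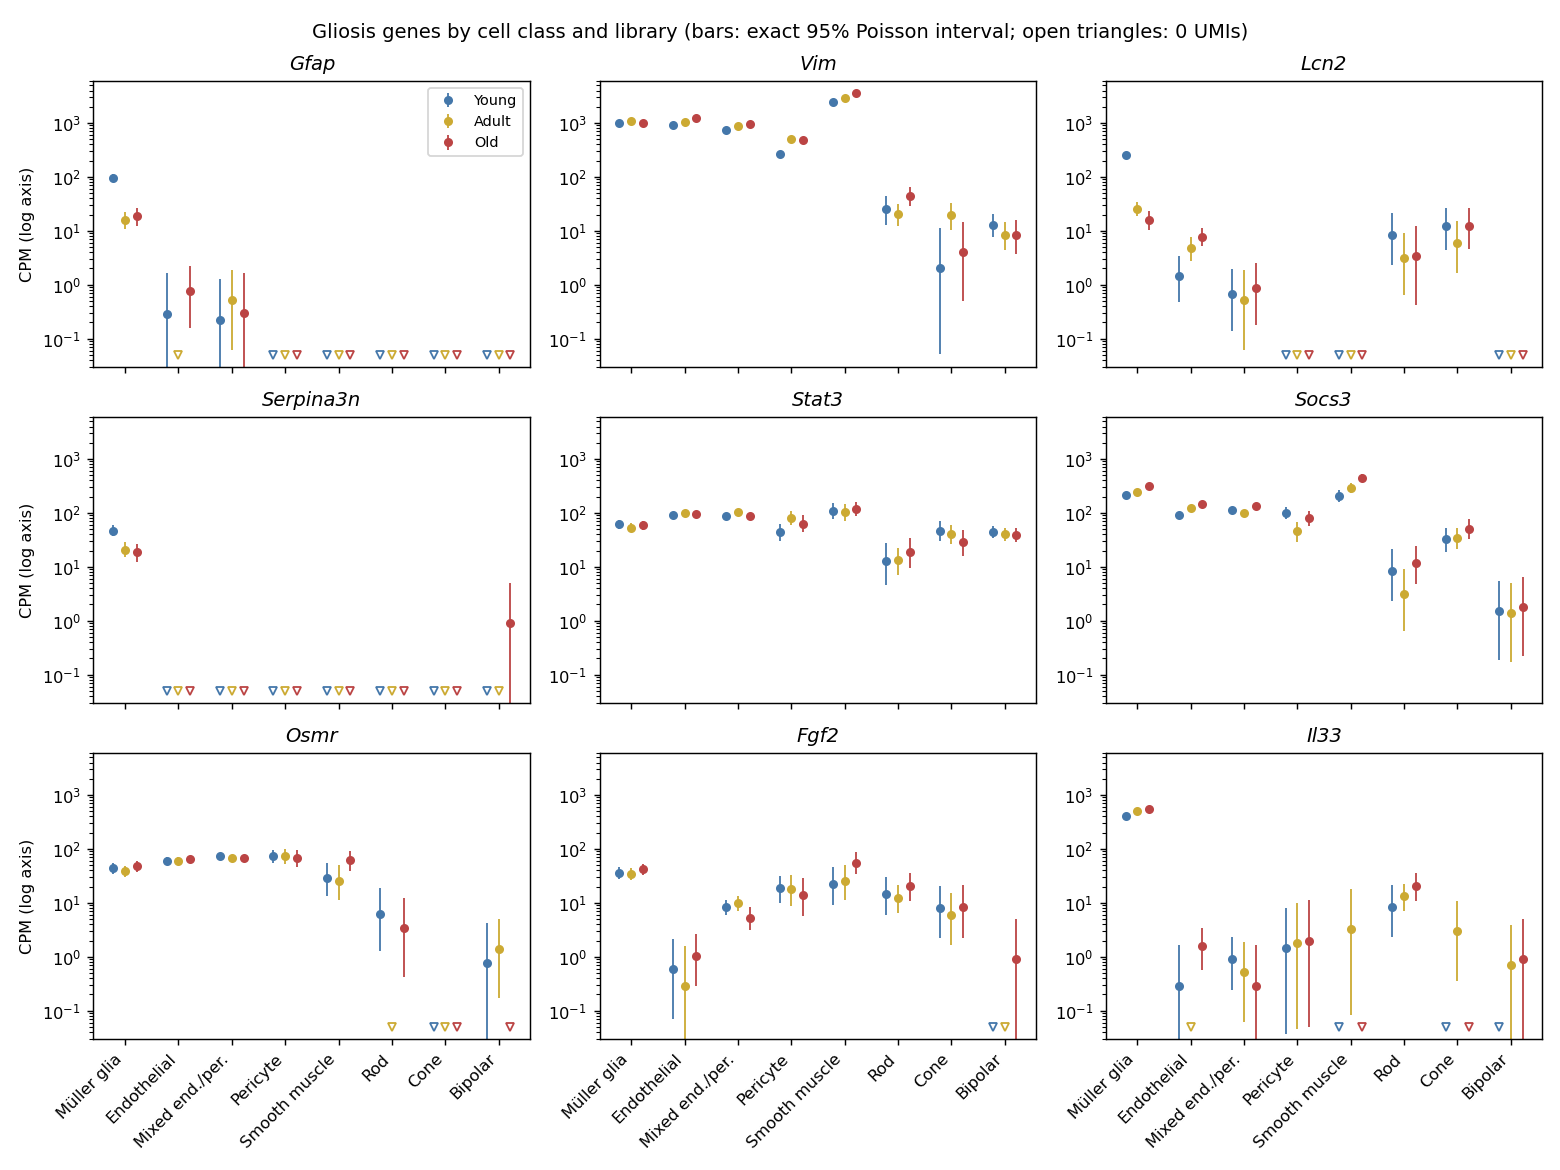
Level of each of the 9 genes (CPM, log axis) in 8 cell classes, 1 point per library with its exact 95% Poisson interval, and open triangles at the bottom for 0 UMIs. Il33, Serpina3n and Gfap stood far higher in the Müller glia-like class than elsewhere, while Vim and Socs3 were also high in smooth muscle and endothelial cells.

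Among the Müller glia-like cells, the old library differed from the young one by at least 1.5-fold for 4 of the 9 genes, all 9 of which had the 20 or more UMIs that a call required. Socs3 was higher, beside a background of 8.54% of 10347 genes called higher, and Gfap, Lcn2 and Serpina3n were lower, beside 7.29% called lower. The median log2 ratio of the 9 genes was 0.02, as over all genes, 0.02. In the adult against the young library the same 3 genes were lower (background 7.18%) and 0 were higher (background 7.7%). Between old and adult 1 gene, Lcn2, was lower (background 6.64%) with an interval of the ratio that held 1, and 0 were higher (background 6.76%).

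The low ratios of these 3 genes rested on 7 young cells. A group of 6 young cells, all in the shallow S100b-led cluster, carried 37 to 141 S100b UMIs each, while the next Müller glia-like cell of any age carried 12. Of these 6 cells 5 held UMIs of Pax2, a transcription factor of optic nerve and retinal astrocytes, and 0 other Müller glia-like cells held any. The other astrocyte markers were mixed. Gja1 was found in 3 of the 6 and stood at 101 CPM in them, against 3.84 CPM in the other young cells. Gjb6 was found in 0, and Aldh1l1 stood at 60.5 CPM in the 6 and 49.95 CPM in the other young cells. All 6 held UMIs of the Müller markers Rlbp1 (1089 CPM, against 3258 in the other 178 young cells), Glul (4457 against 10179) and Slc1a3 (1250 against 1144), but 0 of Aqp4, a water channel of Müller glia, which stood at 1334 CPM in the others. With 13987 to 19026 UMIs each, they were deeper than the median of their cluster and class. They also lacked Il33 (0 of 685 young UMIs), which 73.4% of young Müller glia-like cells carried. Their cluster was named from Müller markers and they were left in the class, with markers of both cell types. The seventh cell was rich in Lcn2. The old/young calls of the 9 genes in Müller glia-like cells are therefore given with and without these 7 cells, a choice made after the data had been seen. For Vim, Osmr, Stat3 and Fgf2 the ratios without them were 1.04, 1.09, 1.04 and 1.18, and no call was made either way.

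GFAP is the filament protein by which gliosis is usually recognised. Young Müller glia-like cells held 161 Gfap UMIs (97.0 CPM, interval 82.6 to 113), adult ones 31 (15.8 CPM, 10.7 to 22.4) and old ones 29 (18.4 CPM, 12.4 to 26.5). The young library was higher and its interval was clear of the others, and the old/young ratio was 0.190 (0.123 to 0.284). Of the 161 young UMIs 135 came from the 6 S100b-rich cells, and the 2 highest held 60 and 32. Without the 7 cells the old/young ratio was 1.10 (0.624 to 1.94). The share of cells with any Gfap UMI was 6.52% (young), 4.42% (adult) and 4.21% (old), and the intervals of these shares overlapped. In the largest cluster Gfap stood at 19.3, 18.03 and 15.4 CPM, so no age difference was detectable there at this depth. Rods, cones, bipolar cells, pericytes and smooth muscle cells held 0 Gfap UMIs in every library. With a limit of 3 UMIs, a count of 0 in the 230 old rods allows up to 5.13 CPM, and the upper end of the exact interval was 6.31 CPM.

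Serpina3n, a serine protease inhibitor secreted by reactive astrocytes, followed Gfap. It counted 78 UMIs in young (47.0 CPM), 41 in adult (20.9 CPM) and 29 in old (18.4 CPM) Müller glia-like cells, and the old/young ratio was 0.393 (0.247 to 0.608). The young library was again the high one. The 6 S100b-rich cells held 48 of the 78 young UMIs, 41 of them in 1 cell, and the Lcn2-rich cell held 12. Without the 7 cells the direction turned, to an old/young ratio of 1.59 (0.852 to 3.03). The adult library too rested on few cells, with 5 cells holding its 41 UMIs and 1 of them 21.

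Lcn2 encodes lipocalin-2, an iron-scavenging secreted protein of acute inflammation. Young Müller glia-like cells held 424 Lcn2 UMIs (255 CPM), adult ones 50 (25.5 CPM) and old ones 25 (15.9 CPM), an old/young ratio of 0.0623 (0.0398 to 0.0932). A single young cell held 388 of the 424. That cell, with 13308 UMIs, also held 62 UMIs of Chil1, 71 of Cp, 52 of Timp1, 25 of C3, 19 of Steap4 and 470 of Mt1, but 0 of Gfap and 0 of Socs3. Without the 7 cells the young level was 16.8 CPM and the old/young ratio 0.947 (0.524 to 1.71). Between 3.54% and 4.89% of cells per library held an Lcn2 UMI. In the old library, 1 barcode of 7034 UMIs that had been called a doublet, and so left out, held 575 Lcn2 UMIs with 148 of Chil1, 48 of Ccl2 and 23 of Cfb. The young cell held 0 UMIs of Ccl2 and Cfb, and the old barcode held 0 of Mt1, with 11 of Cp, 9 of Timp1, 13 of C3 and 10 of Steap4.

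**Figure D2:**
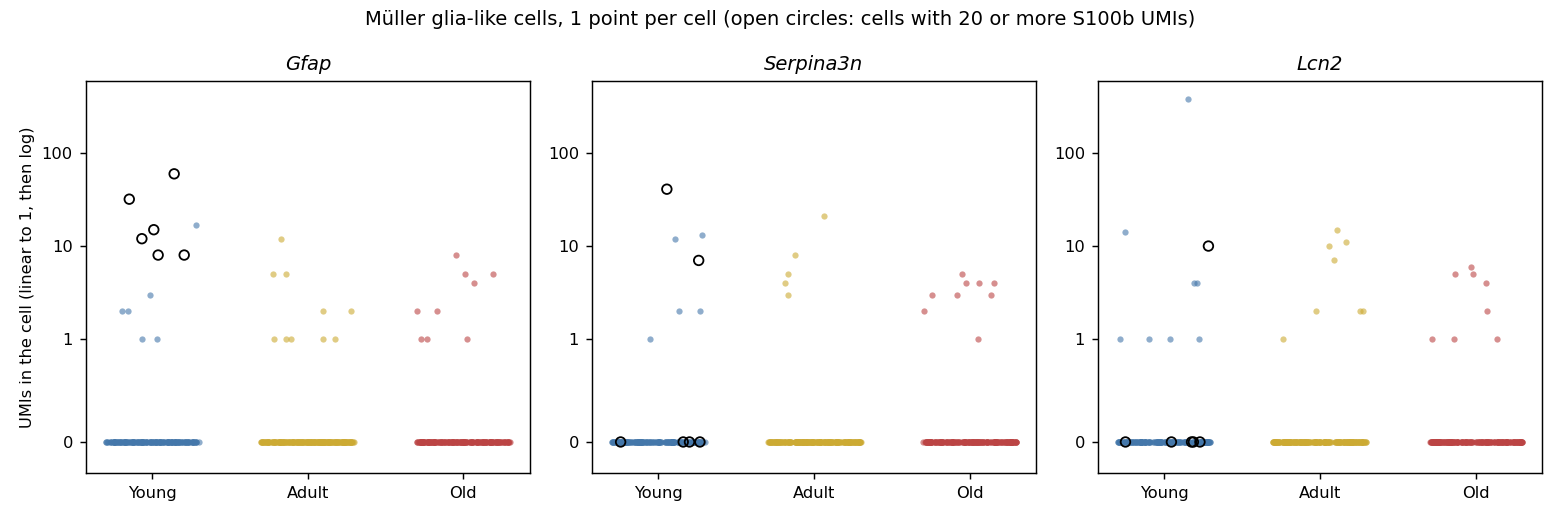
UMIs of Gfap, Serpina3n and Lcn2 in each Müller glia-like cell by library (axis linear to 1, then log), with open circles for cells holding 20 or more S100b UMIs. The 2 highest young Gfap cells, at 60 and 32 UMIs, were S100b-rich, the next, at 17, held 0 S100b UMIs, and 1 young cell alone stood at 388 Lcn2 UMIs.

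In Müller glia-like cells Vim stood at 1002 CPM young (954 to 1051), 1074 adult (1029 to 1121) and 1019 old (970 to 1070), an old/young ratio of 1.02 (0.949 to 1.09). It was found in 88.0, 89.8 and 83.6% of the cells. Endothelial-like cells held 917, 1046 and 1218 CPM, an old/young ratio of 1.33 (1.27 to 1.39), and the order of the ages was the same in their largest cluster, at 890, 986 and 1163 CPM. Smooth muscle cells, the class with the highest Vim, held 2415, 2948 and 3573 CPM, a ratio of 1.48 (1.35 to 1.62). Neither ratio reached 1.5-fold.

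In pericyte-like cells Vim stood at 260 CPM (young), 514 (adult) and 485 (old). The young library was the low one, with 182 UMIs against 283 and 244, and the old/young ratio of 1.86 (1.53 to 2.27) made Vim the only member past 1.5-fold there (1 of 5 with enough UMIs, background 13.4% called higher). Cells with a Vim UMI made up 48.8, 67.7 and 66.7% of pericyte-like cells. The summed level of 5 smooth muscle markers in the same cells was 2551, 3960 and 3855 CPM, lowest in the young library as Vim was, with 1 of the 5, Cnn1, at 0 in each library. That of 7 endothelial markers was 805, 858 and 1079 CPM, with all 7 detected. Their part in the Vim difference was not tested. After leaving out the cells that carried markers of other classes the Vim ratio was 2.15 (1.73 to 2.69). Of the 5 genes for partner proteins of the filament network with enough UMIs in pericyte-like cells, 3 were called higher beside the same 13.4%: Nes, nestin, at 1.79 (1.41 to 2.27), Synm, synemin, at 3.12 (1.29 to 8.31) and Plec, plectin, at 1.68 (1.07 to 2.65). Des, desmin, stood at 1.16 (0.946 to 1.43) and Lmna, a nuclear lamin, at 1.02 (0.819 to 1.27). In smooth muscle 2 of 5 were called higher, Des at 1.82 (1.39 to 2.40) and Synm at 1.58 (1.09 to 2.32), beside a background of 15.3%, while Nes, Plec and Lmna had ratios of 1.03, 1.03 and 1.01. These partner genes were named after their values had been seen. In Müller glia-like cells 0 of the 5 partner genes with enough UMIs were called higher and 1 lower (background 8.54% and 7.29%), Lmnb1, another lamin, at 0.487 (0.224 to 1.00), with 12 old and 26 young UMIs. Once the 7 cells were left out 2 were lower (background 6.97%), Lmnb1 at 0.454 (0.209 to 0.933) and Nes at 0.656 (0.264 to 1.56), the latter on 10 old and 15 young UMIs.

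Osmr, which pairs with gp130 to bind oncostatin M, stood at 44.0, 38.2 and 47.7 CPM in young, adult and old Müller glia-like cells, an old/young ratio of 1.09 (0.775 to 1.52). Pericyte-like cells, at 74.4, 72.7 and 67.6 CPM, and the mixed endothelial and pericyte class, at 75.2, 66.7 and 68.6 CPM, had the highest levels of the 8 classes with overlapping ranges, and endothelial-like cells stood at 60.5, 60.8 and 66.1 CPM. Smooth muscle cells differed, with 9, 8 and 22 UMIs and an old/young ratio of 2.09 (0.927 to 5.17). Outside the 8 classes, the few pigment epithelium-like cells held 136 CPM over 52 old cells (94.2 to 190). Il6st, which encodes gp130, had an old/young ratio of 1.09 (0.872 to 1.36) in Müller glia-like cells and Lifr, the leukemia inhibitory factor receptor, 0.851 (0.503 to 1.43). Cntf, a ligand of this family, counted 149 young and 123 old UMIs, and Il6 and Osm counted 0 in both libraries. Of 12 genes for gp130 cytokines and receptors, 7 had enough UMIs and 0 were called, beside a background of 8.54% higher and 7.29% lower.

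Stat3 had overlapping intervals at the 3 ages in Müller glia-like cells, with 102, 105 and 92 UMIs, or 61.4, 53.5 and 58.5 CPM, and an old/young ratio of 0.952 (0.711 to 1.28). Endothelial-like cells held 92.0, 101 and 95.5 CPM and smooth muscle cells 110, 103 and 120 CPM. In pericyte-like cells the adult library was highest, at 81.8 CPM against 44.4 young, a ratio of 1.84 (1.14 to 3.02), and the old one lay between.

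With all cells in, Socs3 was the 1 gene of the 9 called higher in old than in young Müller glia-like cells. Young Müller glia-like cells held 350 UMIs (211 CPM, 189 to 234), adult ones 488 (249 CPM, 227 to 272) and old ones 498 (317 CPM, 289 to 346). The old library stood above both others, with an old/young ratio of 1.502 (1.31 to 1.73), an old/adult ratio of 1.27 (1.12 to 1.45) and an adult/young ratio of 1.18 (1.03 to 1.36). Over the alternative settings old/adult ranged from 1.20 to 1.94. Adult/young ranged from 0.957 to 1.32, and was below 1 with cells classed by their own markers. The old/young ratio lay at the threshold of a call. Without the 7 cells, which held 56 of the 350 young UMIs, it was 1.67 (1.44 to 1.93). In the largest cluster, whose median depth was close at the 3 ages, the levels were 191, 251 and 346 CPM with a ratio of 1.82 (1.56 to 2.13). The other clusters did not share that order: the Trpm3-led cluster stood at 232, 301 and 239.8 CPM, a ratio of 1.04 (0.652 to 1.65), and the shallow cluster, which held the S100b-rich cells, at 367, 114 and 43.9 CPM, a ratio of 0.120 (0.0315 to 0.324). In the largest cluster a Socs3 UMI was found in 42.6% (young), 54.0% (adult) and 56.8% (old) of cells, and 10 or more UMIs were found in 5 young, 11 adult and 15 old cells. Over the whole class, with every cell thinned to 2000 UMIs, the shares were 26.2, 26.0 and 28.7%, with overlapping intervals, and the thinned ratio of 1.23 (0.881 to 1.73) held 1. Rods, read here for free RNA, held a Socs3 UMI in 0.968 to 2.17% of cells.

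Socs3 had the same order of ages in the endothelial-like and smooth muscle classes but not in the other vascular classes. Endothelial-like cells held 92.0, 124 and 145 CPM, an old/young ratio of 1.57 (1.37 to 1.81), and smooth muscle cells 208, 288 and 443 CPM, a ratio of 2.13 (1.58 to 2.89). Within the endothelial-like class 1 of 3 clusters, a shallow one, had its adult level lowest, at 45.6, 23.1 and 94.9 CPM. The mixed endothelial and pericyte class held 114, 101 and 134 CPM, and pericyte-like cells held 100, 45.5 and 79.5 CPM, with the adult library lowest and an old/young ratio of 0.794 (0.524 to 1.19). In endothelial-like cells 2 of the 5 members with enough UMIs were called higher, Socs3 and Lcn2, beside a background of 7.26%, and 0 lower beside 5.48%. Lcn2 there rested on 5, 17 and 30 UMIs, 15 of the last in 1 old cell. In the endothelial-like class the summed level of 8 Müller markers was 709, 876 and 1078 CPM, that of 8 pericyte markers 2083, 2101 and 1395 CPM and that of 5 erythroid markers 526, 196 and 1313 CPM, with all of them detected, and their part was not tested. In smooth muscle it was 3 of 5, Socs3, Osmr and Fgf2, beside a background of 15.3%, but of these only the Socs3 interval excluded 1, and that class held 37 or 38 cells per library. The mix of that class also differed, with a summed level of 8 pericyte markers of 9415, 9148 and 4795 CPM, and its part was not tested.

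Socs3 is also an immediate early gene that dissociation can induce, and its level across classes was most like that of such genes. Over the 24 points of 8 classes in 3 libraries, which share libraries and depth, the Pearson correlation of log2(CPM + 10) was highest with Btg2 (0.97), Fos (0.96) and Egr1 (0.92) among 10219 genes. Vim was as much like the early genes Zfp36 (0.99) and Dusp1 (0.98), so such a likeness was not particular to Socs3. In the largest Müller cluster the old/young ratio was 0.994 (0.937 to 1.05) for Btg2, 1.01 (0.965 to 1.07) for Fos, 0.862 (0.796 to 0.932) for Egr1, 0.876 (0.836 to 0.918) for Jun, 0.606 (0.415 to 0.876) for Atf3 and 1.26 (1.16 to 1.35) for Ier2, another early gene. The part of dissociation in the Socs3 difference was not tested. The summed level of 12 dissociation genes in Müller glia-like cells was 12355 CPM young, 11812 adult and 12018 old, and 1 of the 12, Hspa1a, a heat shock protein, was called, lower at 0.472 (0.250 to 0.858), beside a background of 7.29%. Without the 7 cells Ier3, an early response gene, was called higher as well, at 1.56 (1.34 to 1.81), beside a background of 8.6%. In endothelial-like cells the sum was 11033, 11255 and 10571 CPM, with 0 of 12 higher and 3 lower (background 5.48%), Fosb at 0.529 (0.4995 to 0.560), Hspa1a at 0.583 (0.539 to 0.631) and Hspa1b at 0.307 (0.272 to 0.347). In pericyte-like cells, where Vim was higher, it was 10150, 7907 and 7984 CPM, highest in the young library, with 1 higher (background 13.4%) and 4 lower (background 8.85%). The higher one was Atf3, a stress-induced factor, at 3.04 (1.64 to 5.88), and the lower ones were Fosb, Jun, Hspa1a and Hspa1b, at 0.429 to 0.639. In smooth muscle the sum was 13865, 15519 and 15372 CPM and 1 of 12 was higher (background 15.3%), Atf3 at 2.39 (1.80 to 3.21).

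**Figure D3:**
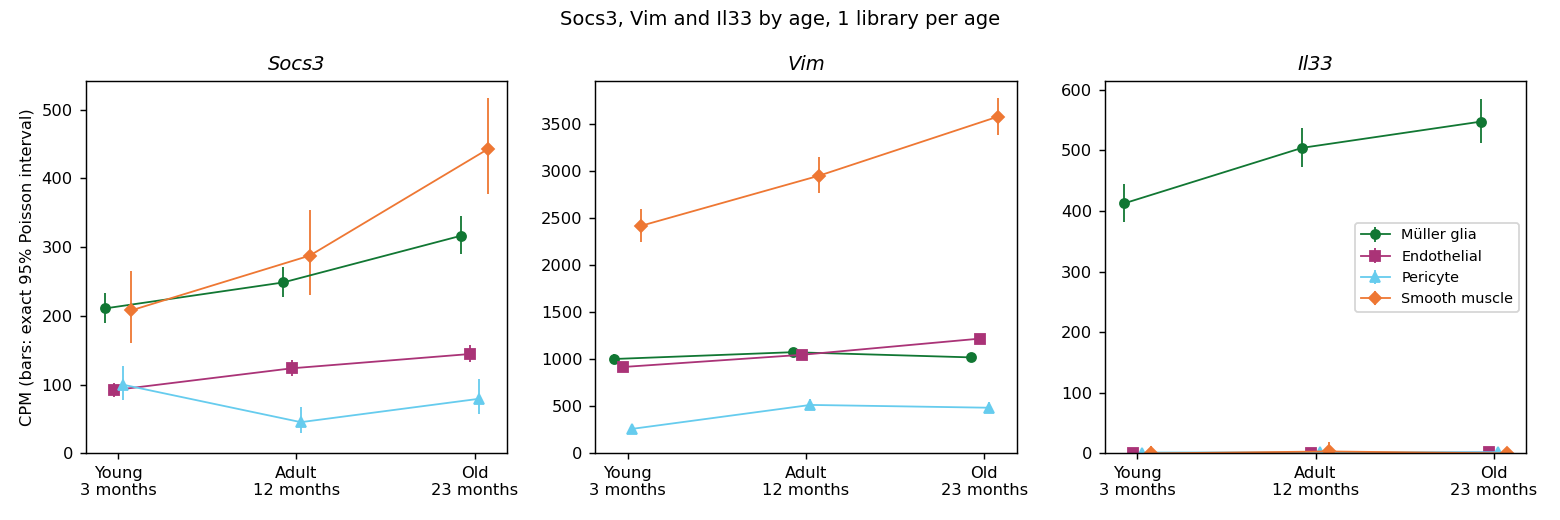
Level (CPM, linear axis from 0) of Socs3, Vim and Il33 in the young, adult and old library for 4 classes, with exact 95% Poisson intervals. Socs3 was highest in the old library in Müller glia-like, endothelial-like and smooth muscle cells, Vim passed 1.5-fold in pericyte-like cells while the glial level stayed near 1000 CPM, and Il33 was near 0 outside the glia.

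Other parts of the JAK-STAT relay were read in the Müller glia-like cells. Of 13 genes 10 had enough UMIs, 2 were higher and 1 was lower in the old library (median log2 ratio 0.10 beside 0.02 over all genes), against the 8.54% and 7.29% of all genes called in those directions. Cebpd, a transcription factor of the acute phase response that lies downstream of STAT3, went from 1180 UMIs in young to 1705 in old cells, a ratio of 1.53 (1.42 to 1.64). Pias3, an inhibitor of STAT3, had a ratio of 1.73 (0.989 to 3.08). Socs1, the sister inhibitor, went the other way at 0.583 (0.296 to 1.11), on 29 UMIs in young and 16 in old cells. All 3 kept their calls without the 7 cells, where the Cebpd ratio was 1.52 (1.41 to 1.64). Between the adult and the young library 0 of 9 JAK-STAT genes with enough UMIs passed with all cells in (background 7.7% higher and 7.18% lower). Without the 7 cells 1 of 9 was lower (background 6.83%) and 0 higher (background 7.75%). In endothelial-like cells 2 of 13 were higher (background 7.26%) and 0 lower (background 5.48%). They were Cebpd, at 1.66 (1.38 to 1.99), and Socs1, at 1.59 (0.991 to 2.60), which had been lower in the glia. Cebpd was not called in pericyte-like cells, at 1.31 (0.949 to 1.80), or in smooth muscle, at 0.676 (0.503 to 0.905).

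Fgf2 stood at 36.1, 34.1 and 41.97 CPM in young, adult and old Müller glia-like cells, with 60, 67 and 66 UMIs and an old/young ratio of 1.16 (0.806 to 1.68), so that no difference was detectable at this depth. After thinning to 2000 UMIs the ratio was 1.87 (0.693 to 5.53), and adult/young, 0.945 with all UMIs, was 1.97 (0.765 to 5.65). At most 4 UMIs were found in any 1 cell, and 22.4 to 25.2% of cells held one. Smooth muscle cells held 22.8, 25.9 and 55.7 CPM. Rods stood at 14.7, 12.3 and 20.5 CPM, which was 40.8, 35.99 and 48.9% of the Müller level, while 8 Müller markers stood in rods at 1.88, 0.918 and 2.70% of theirs. The Fgf2 share in rods was thus above that of the Müller markers in each library, on 7 to 12 UMIs. Of the receptors, Fgfr1 had an old/young ratio of 1.13 (0.914 to 1.39) in Müller glia-like cells, while Fgfr2 counted 4 young and 0 old UMIs and Fgfr3 4 and 3. Of 11 genes for FGF receptors and targets 7 had enough UMIs, and 1 was called beside a background of 7.29% lower, Spry4, an inhibitor induced by FGF signalling, lower at 0.469 (0.217 to 0.958).

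Among kept cells Il33 lay almost wholly in the glia, with 97.5 to 98.3% of its UMIs in the kept cells of each library. Over all barcodes, left-out ones included, the young library counted 754 Il33 UMIs with 685 in the class, adult 1248 with 990, and old 1058 with 861. Young Müller glia-like cells held 685 UMIs (412 CPM, 382 to 445), adult ones 990 (504 CPM, 473 to 537) and old ones 861 (548 CPM, 512 to 585). The young library was lowest and its interval lay below the other 2, which overlapped. With cells classed by their own markers the adult library was lowest instead, at an adult/young ratio of 0.924 (0.826 to 1.03). The old/young ratio was 1.33 (1.20 to 1.47), under 1.5-fold, and 1.24 (1.12 to 1.38) without the 7 cells. The gene was spread over most of the cells, at 73.4% young, 78.8% adult and 74.8% old, and in the largest cluster at 90.7, 93.2 and 96.0%. After thinning to 2000 UMIs, which left out 12, 26 and 43 shallower cells, the shares were 49.4% (41.7 to 57.1), 58.5% (51.3 to 65.4) and 62.6% (54.9 to 69.8). Rods held an Il33 UMI in 2.45, 3.87 and 4.78% of cells, at 2.04, 2.64 and 3.75% of the Müller level, on 4, 13 and 12 UMIs. The 8 Müller markers together stood in rods at the lower shares given for Fgf2.

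The receptor of IL-33 was not detected beside it. Il1rl1, which encodes ST2, the binding chain, counted 0 UMIs in young and old Müller glia-like cells. Il1rap, the shared accessory chain, counted 13 and 8, a ratio of 0.650 (0.234 to 1.69) that without the 7 cells had too few UMIs for a call, and Il1r1, the interleukin-1 receptor, 25 and 6, of which 20 young UMIs lay in the 7 cells. Myd88, the adaptor of these receptors, counted 10 and 21, a ratio of 2.22 (1.00 to 5.27). Over the same 24 points Il33 was most like Necab2, Pdlim4 and Tff2 (each 0.99), Vim like Zfp36 (0.99), Timp3 and Dusp1 (both 0.98), Osmr like Cyba, Lrp5 and Hsd17b11 (each 0.98) and Stat3 like Dipk1a (0.94), Cfl1 and Zfp358 (both 0.93). Fgf2 was most like Oat and Pawr (both 0.93) and Fxyd1 (0.90), and Lcn2 like S100b (0.85), Padi2 (0.83) and Utp14b (0.82). Gfap and Serpina3n had too few UMIs for this comparison.

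**Figure D4:**
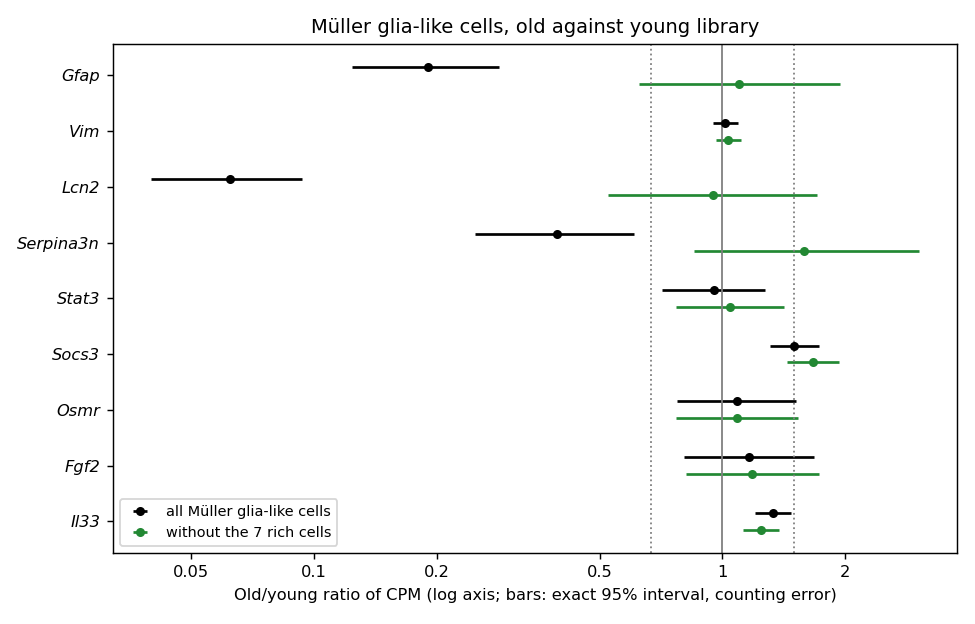
Old/young ratio of CPM for the 9 genes in Müller glia-like cells (log axis, bars for the exact 95% interval, dotted lines at 1.5-fold), with all cells in black and without the 7 S100b-rich or Lcn2-rich young cells in green. Gfap, Lcn2 and Serpina3n moved from below to about or above 1, while Socs3 stayed near or above 1.5 and Il33 between 1 and 1.5.

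Genes that mark reactive astrocytes in other settings were read in the same cells. Of 8 pan-reactive genes 7 had enough UMIs, and 3 were lower in the old library (background 7.29%): Timp1, a metalloproteinase inhibitor, at 0.0503 (0.0101 to 0.154), Steap4, a metalloreductase, at 0.211 (0.0525 to 0.630) and Cxcl10, a chemokine, at 0.335 (0.165 to 0.637). The Lcn2-rich cell alone held 52 of 63 Timp1 and 19 of 20 Steap4 young UMIs, and 1 S100b-rich cell held 39 of 41 Cxcl10 young UMIs. With all 7 cells left out the 3 genes had too few UMIs, and of the 4 left 0 were lower (background 6.97%) and 1 was higher (background 8.6%). That gene, Hspb1, a small heat shock protein, had a ratio of 1.83 (1.20 to 2.83) without the 7 cells and 0.919 (0.652 to 1.29) with them.

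Genes of the A1 list, which name 1 reactive state of astrocytes and include interferon targets, were lowest in the young library by their summed level, at 261 CPM against 333 (adult) and 347 (old). With all cells 3 of 7 with enough UMIs were higher (background 8.54%) and 0 lower (background 7.29%, median log2 ratio 0.53 beside 0.02 over all genes), namely H2-T23, a class I antigen gene, at 1.80 (1.22 to 2.67), Gbp2, an interferon-induced GTPase, at 1.65 (0.972 to 2.84) and Fbln5, an elastic fibre protein, at 2.21 (1.03 to 5.02). Without the 7 cells 4 were higher and 0 lower (background 8.6% called higher and 6.97% lower), with Serping1, the C1 inhibitor, added at 1.55 (1.13 to 2.13), and the median was 0.63 beside 0.02. The adult library already differed, with 4 of 7 higher (background 7.7%) and 0 lower (background 7.18%) against the young one and a median log2 ratio of 0.62, all cells included. Between old and adult 1 of 7 was higher (background 6.76%) and 0 lower (background 6.64%), with a median of 0.10. In endothelial-like cells 7 of 10 A1 genes were higher in the old library (background 7.26%) and 0 lower (background 5.48%), among them H2-D1, a class I antigen gene, at 1.96 (1.87 to 2.06), found in 87.4% (young), 87.3% (adult) and 94.1% (old) of the cells. Cxcl10 had an old/young ratio of 28.03 (18.8 to 43.6) there, but 679 of its 790 old UMIs lay in 1 cell. These endothelial genes were picked out after their values had been seen. In Müller glia-like cells 2 of 11 A2 genes had enough UMIs and 0 were called (background 8.54% higher and 7.29% lower). In endothelial-like cells 4 had enough UMIs, with 1 higher (background 7.26%) and 0 lower (background 5.48%). The higher one, Ptgs2, stood at 2.22 (1.39 to 3.64) and was named after its value was seen. For the 9 gliosis genes without the 7 cells, 2 were higher in the old library (background 8.6%), Socs3 and Serpina3n, and 0 lower (background 6.97%). The Serpina3n interval held 1. The median log2 ratio of the 9 was 0.13, beside 0.02 over all genes. In the adult against the young library Lcn2 and Serpina3n were then higher (background 7.75%) and 0 were lower (background 6.83%). All 7 left-out cells were young and held most of the young UMIs of these 2 genes. The adult cell with 21 of the 41 adult Serpina3n UMIs stayed in, so both calls depend on that choice of cells.

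**Figure D5:**
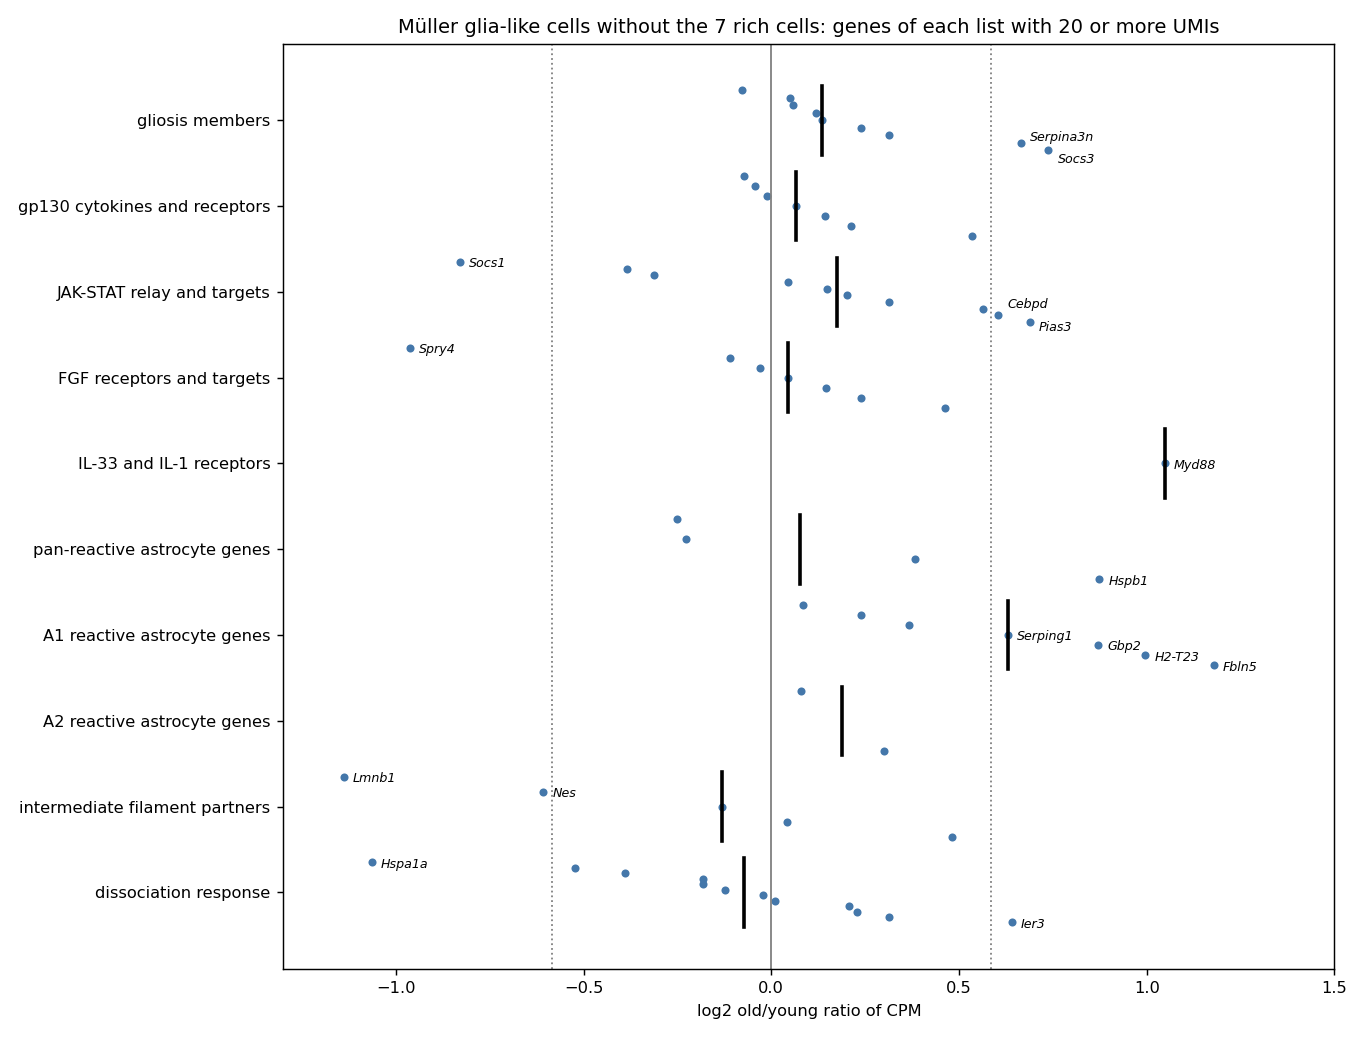
Log2 old/young ratio of CPM in Müller glia-like cells without the 7 rich cells, 1 point per gene with 20 or more UMIs, by list, with a black bar for the median of each list and dotted lines at 1.5-fold. The A1 list has the highest median among lists with more than 1 gene, at 0.63, and the dissociation genes lie around 0.

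With cells thinned to 2000 UMIs, the median Müller glia-like cell held UMIs of 2 of the 9 genes in every library. Exactly 2 were found in 64 young, 90 adult and 78 old cells, and 3 or more in 41 of the 172 young cells, 48 of the 200 adult cells and 44 of the 171 old ones. Outside the 8 classes, a small cluster led by crystallins, with 37 of its 38 cells from the adult library, held 3120 CPM of Vim in those cells but 1 UMI of Il33, and it was left unnamed.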

How the data were processed

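Single-cell RNA sequencing (10x Genomics v3.1) was performed on CD31-enriched retinal cells, 1 library per age from the pooled retinas of 2 mice. The deposited values were raw counts, whole UMIs per gene and barcode, which the submitters' processing notes credit to Cell Ranger 6.1.2 and mm10. The barcode-calling settings are not given in the sources used here. Cells with 500 to 6000 genes and 1 to 20% mitochondrial UMIs were kept, the limits of the study's methods, and doublets called by Scrublet (scanpy 1.11.5) in each library (7, 17 and 16 cells, 0.409 to 0.934%) were removed. Few were called, and a mixed cluster of 311 young, 250 adult and 223 old cells with endothelial and pericyte markers was kept apart as its own class. Cells were integrated and clustered in Seurat 5.3.0 (R 4.3.3) with 2000 features, none from the lists described here, 30 principal components and a resolution of 0.5.

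A cluster took a class name when it met at least 3 of that class's markers, at least 50% of the list. A marker was met when detected in 20% of the cluster's cells and at 25% of the highest cluster's level. Clusters meeting this for several classes were called mixed, except for pericyte with smooth muscle, where the name with more leading genes was taken. The smooth muscle class was named so, with 4 of 8 pericyte and 4 of 5 smooth muscle markers. Clusters below 50% of every list took the class with most markers, at least 3, as bipolar clusters with 3 and 4 of 9 did. These thresholds were set after the clusters were seen. UMIs were summed per library and class. A gene was called higher or lower past a ratio of 1.5 with at least 20 UMIs in both libraries together, with no p-value because each age is 1 library. The ratio and its interval were tested on simulated Poisson counts only. These leave out the clumping of UMIs in single cells, so the test does not cover that spread. The floor of a count of 0 was set at 3 UMIs. The named genes were the 9 members, the listed genes called in Müller glia-like cells and the members' receptors, plus for each member with at least 300 UMIs the 3 genes most correlated with it. A few partner genes in other classes were named after their values were seen. The members and gene lists were chosen with earlier results of these data known, and 1 listed gene is not reported here. Of 32285 gene identifiers 32158 were found in GENCODE M21, including all 9 members.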

Additional observations from a re-analysis of the deposited data

Results flagged for a closer look

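With all kept cells in, the old/young ratio of Lcn2 differed in direction between classes. It was lower in the old library in Müller glia-like cells, at 0.0623 of the young level, and higher in endothelial-like cells, where 5 young, 17 adult and 30 old UMIs gave an old/young ratio of 5.32 (2.04 to 17.6). The ratio of the 2 ratios was 85.5, and the difference was not tested. The Müller ratio rested on 1 young cell: it was 0.947 (0.524 to 1.71) without the 7 rich young cells, which is no call, and 1.31 (1.16 to 1.48) with called doublets kept in. In the endothelial-like class 15 of the 30 old UMIs lay in 1 cell and 12 of the 17 adult UMIs in another, and in the glia 388 of 424 young UMIs lay in 1 cell.

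Signal was also found in barcodes of every age that the comparisons left out. In the young library 1 barcode outside the limits held 72 Serpina3n UMIs and 1 called doublet held 19 Gfap and 55 Lcn2 UMIs, and adult called doublets held 90 S100b, 15 Gfap and 2 Pax2 UMIs. Old barcodes outside the limits on cells held 101 Gfap UMIs, against 0 in the young ones, and 97 of them lay in 1 barcode of 25170 UMIs with 21.9% mitochondrial UMIs, 74 S100b and 5 Pax2 UMIs. Old called doublets held 39 Gfap UMIs, of which 37 lay in 1 barcode with 41 S100b and 5 Pax2 UMIs. They also held 575 Lcn2 UMIs, all in 1 barcode of 2471 genes. Barcodes with Gfap, S100b and Pax2 together were thus present in the old library too, while the limits and the doublet call left 5 of them in the young Müller glia-like class and 0 in the old.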

How the results depend on the processing

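No paired analysis was possible because each age is 1 library and the labels number every library 1. Of the 9 genes in Müller glia-like cells, old against young, 4 were called. The count was 2 under limits of 1000 to 6000 genes and 1 to 10% mitochondrial UMIs, 2 without the S100b-rich cells, 2 without these and the Lcn2-rich cell, 2 without the shallow cluster and 1 in the largest cluster alone (the last 4 were chosen after seeing the data). Adult against young, 3 were called, against 5 with cells classed by their own markers, 1 under the stricter limits and 1 without the S100b-rich cells. Old against adult, 1 was called, against 5 with cells classed by their own markers, 3 without cells with markers of other classes, 2 with doublets kept and 0 after thinning to 2000 UMIs. In endothelial-like cells the count of 2 became 1 after thinning and 5 with no minimum of UMIs. In pericyte-like cells the count of 1 became 2 without cells with other markers and 2 under the stricter limits. Of the pathway lists in Müller glia-like cells, old against young, 15 genes were called, 4 after thinning and 28 with no minimum. The background of the 15 was 8.54% of all genes called higher and 7.29% lower, and those of the other main counts are given above. Backgrounds under the alternatives are not given here, except without the 7 cells. The changes in these counts are therefore not read as results about the genes.

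Among ratios called at 1.5-fold, directions turned for 3 genes. The old/young ratio of Gfap was 1.11 without the S100b-rich cells and 1.10 without these and the Lcn2-rich cell. That of Serpina3n was 1.58 without the shallow cluster, 1.59 without the 7 cells and 1.44 in the largest cluster, and its adult/young ratio became 1.09, 1.83, 1.80 and 1.79 without the S100b-rich cells, without the shallow cluster, without the 7 cells and in the largest cluster. For Lcn2 the adult/young ratio became 1.55 without the shallow cluster, 1.52 without the 7 cells and 1.57 in the largest cluster. With doublets kept, 1 old barcode turned its old/young ratio to 1.31 and its old/adult ratio to 14.5. Socs3 in Müller glia-like cells ranged from 1.23 after thinning to 1.86 with cells classed by their own markers, and under median-of-ratios scaling it was 1.47, short of a call. Il33 ranged from 1.23 to 1.62, the highest after subtracting free RNA set from rod genes. Of 471 values for single genes under the alternatives, 405 stayed within the main interval, 52 moved beyond it and 14 called values turned. Uncalled ratios also crossed 1: with cells classed by their own markers the adult/young ratios of Socs3 and Il33 were 0.957 and 0.924, and after thinning that of Fgf2 was 1.97 and the old/young ratio of Stat3 in pericyte-like cells 0.815.

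In the largest cluster Gfap rested on 20 to 31 UMIs per library, too few to show a 1.5-fold difference. With 1 library per age the spread between mice is unknown.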

Other observations

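S100b, left aside above as an astrocyte marker, also differed with age among the remaining glia. In the largest Müller cluster, which held none of the S100b-rich cells, it counted 25 young, 131 adult and 107 old UMIs, or 18.5 CPM (12.0 to 27.4), 76.2 (63.7 to 90.4) and 82.2 (67.3 to 99.3). The old/young ratio was 4.43 (2.85 to 7.15) and the adult/young ratio 4.11 (2.66 to 6.58). Cells with an S100b UMI made up 14.7% (young), 31.1% (adult) and 37.6% (old), at median depths of 10654, 10702 and 10773 UMIs, with at most 12 UMIs in any of them. For Gfap no difference was detectable in these cells, as given above, and Aqp4, a water channel of the glial end-feet, stood at 1419, 1347 and 1411 CPM. This gene was singled out after its values were seen.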
